A study of Canis lupus familiaris with 6 samples.

Results

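The genes of the actomyosin and actin-binding cytoskeleton were followed in β-cat ΔN/RasV12 cells grown in a single culture or in a mix culture. The set was a list of 59 gene symbols, chosen by function: actins, the chains and regulators of myosin II, and the proteins that coat, crosslink, anchor, build or dismantle actin filaments. Of the 59 genes, 53 had a probe under their gene name on a canine array of 43603 probes and 14228 gene names, and each was read from its brightest probe. They carried 125 probes in all. A probe entered the test if all 3 arrays of a culture, or of both, read well above background, which held for 51 of the 53 genes and 114 of the 125 probes.

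The cells were MDCK, a dog kidney epithelial line, carrying mCherry-tagged β-catenin Δ131 (β-cat ΔN, which lacks its N-terminal part and is stabilised) and a GFP-tagged RasV12 (an active Ras) that tetracycline switches on. They grew alone (single culture, 3 arrays) or among 10 neighbours per RasV12 cell (mix culture, 3 arrays). These neighbours carried mCherry-β-catenin Δ131 without RasV12, so β-cat ΔN and RasV12 were common to both sorted populations. After 24 h of tetracycline on collagen, cells were detached with Accutase and sorted for GFP, and RNA of the GFP-positive cells was hybridised in 1 colour. The labels do not say whether a replicate was a separate culture, so the p-values measure the spread between these samples, which may be technical.

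Actin filaments are built from subunits that profilin delivers and cofilin removes. Non-muscle myosin II, made of a heavy chain with light chains, pulls on filaments that tropomyosin coats and that α-actinin, filamin and plastin hold together. Ezrin, radixin and moesin tie filaments to the plasma membrane, and spectrin lines it. In epithelial sheets this machinery shapes the cell borders, the microvilli and the cleavage furrow of dividing cells.

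Levels are given as normalised log2 signal, which is the log2 of the background-subtracted signal minus the 75th percentile of the array. A level of one probe cannot be set against that of another. Changes are the mean of the mix cultures minus the mean of the single cultures on that scale, so that 1 is a 2-fold change. RNA came from whole sorted populations, in which fewer cells of a type and less RNA per cell cannot be told apart. Replicate 1 of each culture lay on slide 1 and replicates 2 and 3 of each on slide 2, and 47.2% of tested probes differed between the slides in limma. Each slide held both cultures. Results are therefore given without a block, with the slide as a block, and within each slide.

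The 60-base probes of the genes discussed most are shown, as the array design holds them, because the reading of anillin, α-actinin 1, moesin and β-tropomyosin differed between probes or between fits. In the first 5 and in the TPM2 probes nothing is marked. In the last pair of MSN probes, capitals mark the 45 bases that both share, so those probes are no independent readings. Positions are on CanFam3.1 as the files give them, and a span longer than the probe crosses a splice junction. Each probe could be read through in at least 1 frame without a stop codon, and exon numbers and UTR annotation were not used here.
ANLN, chr14:47853438-47853497, plus strand: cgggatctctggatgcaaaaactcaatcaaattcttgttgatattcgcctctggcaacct
ANLN, chr14:47831404-47832103, plus strand: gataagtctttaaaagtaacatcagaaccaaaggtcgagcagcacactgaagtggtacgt
ACTN1, chr8:42715196-42716740, minus strand: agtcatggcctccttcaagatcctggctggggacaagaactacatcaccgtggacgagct
ACTN1, chr8:42738639-42740232, minus strand: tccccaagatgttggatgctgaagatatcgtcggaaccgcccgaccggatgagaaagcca
MSN, chrX:50761401-50761460, plus strand: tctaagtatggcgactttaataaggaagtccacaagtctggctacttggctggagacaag
MSN, chrX:50773552-50773611, plus strand: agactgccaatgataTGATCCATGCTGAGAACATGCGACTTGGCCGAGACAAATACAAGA
MSN, chrX:50773567-50773626, plus strand: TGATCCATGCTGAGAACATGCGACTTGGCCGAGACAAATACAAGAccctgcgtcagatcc
TPM2, chr11:52214820-52215036, minus strand: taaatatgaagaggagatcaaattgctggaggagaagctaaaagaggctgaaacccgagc
TPM2, chr11:52213550-52214795, minus strand: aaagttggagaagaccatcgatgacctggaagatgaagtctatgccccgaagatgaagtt

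None of the 51 tested genes passed the limma test without a block (adjusted p under 0.05 over all 26621 probes), where 0.883% of all tested probes did. At an unadjusted p under 0.05, limma gave 2 of the 51 (3.92%, against 8.71% of all tested probes), MYH9 and ANLN. By the methods' t-test none of the 51 passed after Benjamini-Hochberg adjustment, where 8 of all 26621 probes did. With the slide as a block, 2 of the 51 (3.92%) were called, ANLN and ACTN1, both lower in mix culture, against 7.2% of all tested probes called in both directions and 3.22% called lower. With the replicate number as a block 1 of the 51 (1.96%) was called, ANLN, against 5.26% of all tested probes. The shares of the set thus lay near or below the background.

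The changes were small throughout. They ran from -0.69 (CALD1) to 0.15 (PLS3), with a median of -0.15 against -0.05 over all tested probes. The fitted change was below 0 for 39 of the 51 genes (76.5%), and for 58% of all tested probes. With the slide block, the 95% interval lay inside a 2-fold change for 50 of the 51 genes, as it did for 93.9% of all tested probes. The exception was CALD1, whose interval ran from -1.33 to -0.05. Without the block, 40 of the 51 intervals lay inside a 2-fold change (78.3% of all tested probes), so for 11 genes that fit alone does not exclude a larger change.

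**Figure D1:**
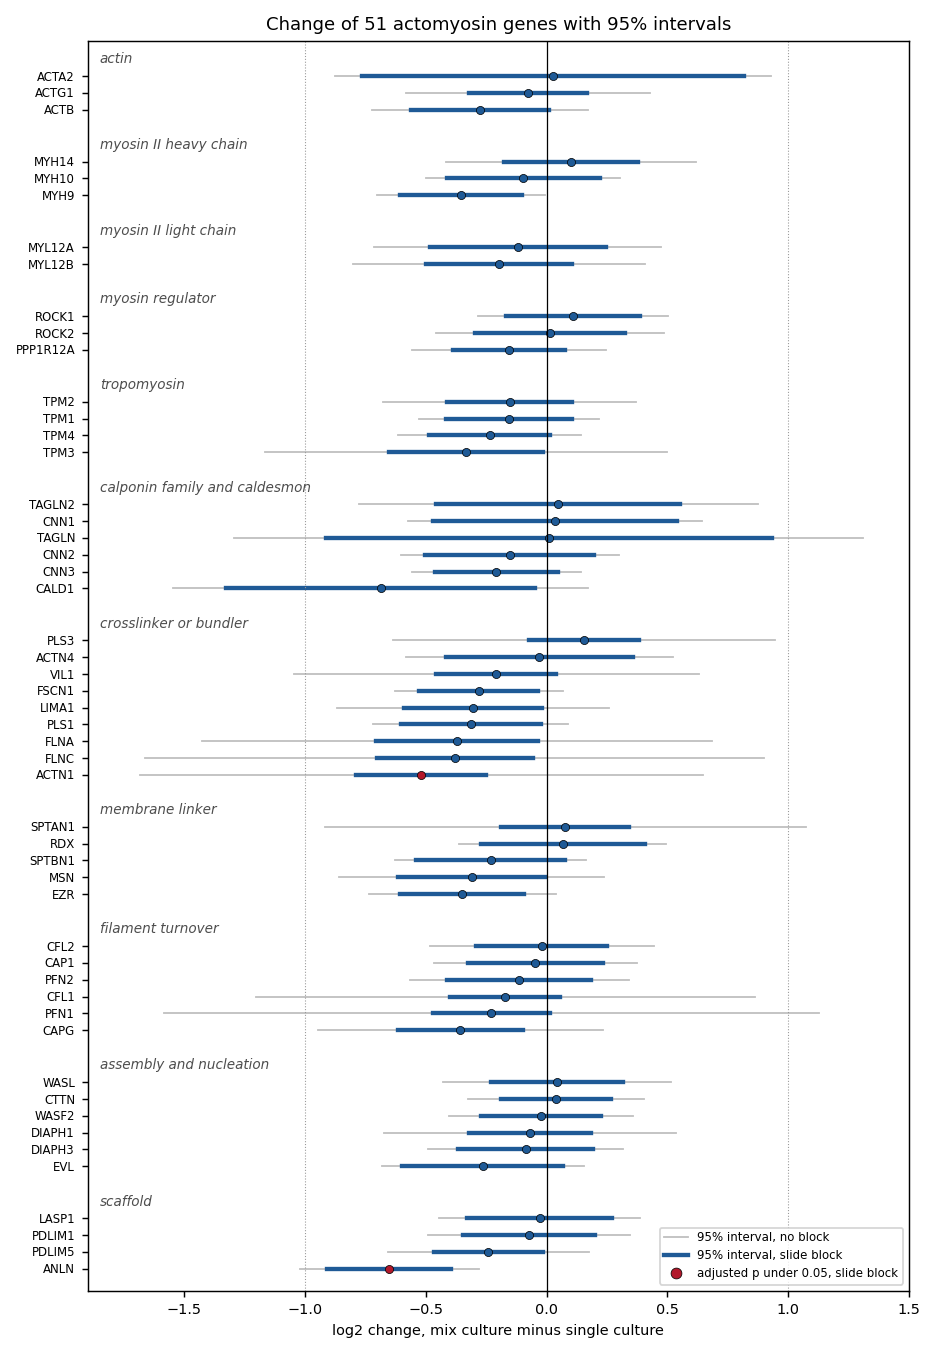
Log2 change (mix culture minus single culture) of the 51 tested genes, by role. Points are the fitted changes, thin grey lines the 95% intervals of limma without a block, thick blue lines those with the slide as a block, red points the genes called with the slide block, and dotted lines a 2-fold change. All points lie between -0.69 and 0.15, and the 2 red points, ANLN at -0.65 and ACTN1 at -0.52, are both below 0.

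In 7 of the 51 genes (13.7%) every mix culture lay below every single culture, against 8.66% of all tested probes, and in no gene did every mix culture lie above, against 7.85%. The 7 genes were ACTB, MYH9, CNN3, PLS1, FSCN1, EZR and ANLN. With the slide block, 14 of the 51 had an unadjusted p under 0.05, all of them lower in mix culture, whereas 14.6% of all tested probes did so in that direction. The direction held on both slides for 28 genes that were lower (54.9%, against 42.3% of all tested probes) and for 4 that were higher (7.84%, against 28.4%), namely ROCK1, PLS3, SPTAN1 and CTTN. That holds for the brightest probes, and the 4 tested CTTN probes ran from -0.26 to 0.04. In 19 genes (37.3%, against 29.3% of all tested probes) the slides differed in sign. No test was made of the set as a whole.

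The brightest probes stood somewhat apart from the others. All tested probes were split into 4 equal groups by mean signal, and 28 of the 51 genes fell in the brightest group. From the dimmest to the brightest group the median change over all probes was -0.06, -0.03, -0.02 and -0.09, with no steady trend. For the 7, 6, 10 and 28 genes of the set it was -0.10, -0.18, -0.10 and -0.18. In the brightest group 65.5% of all probes were below 0, against 53.4% to 57.9% in the others, and 22 of the 28 genes were. Every mix culture lay below every single culture in 10.5% of its probes, against 7.65% to 8.67%. Its median on slide 1 was -0.14, against -0.03 to -0.02. The shares over all tested probes (58% and 8.66%) are thus a low background for those 28 genes. Under quantile normalization the medians over all probes were -0.05, -0.04, -0.02 and -0.02, and over the whole set the median was -0.10. The part of signal strength in the change of the set was not tested.

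Anillin, encoded by ANLN, is the scaffold that binds actin, myosin II and septins in the cleavage furrow. Its brightest probe read 1.73, 1.58 and 1.78 in single cultures 1 to 3 and 1.21, 0.92 and 1.00 in mix cultures 1 to 3. All 3 mix cultures were below all 3 single cultures. The means were 1.70 ± 0.10 (SD, n = 3) and 1.04 ± 0.15 (SD, n = 3), a change of -0.65 (SE 0.16), or a 1.57-fold lower signal. The limma adjusted p was 0.185 without a block, 0.0131 with the slide block (95% interval -0.91 to -0.40) and 0.024 with the replicate block. Within slide 1 the change was -0.52, and within slide 2 it was -0.72. The other ANLN probe, which lies elsewhere in the gene, gave -0.54 (SE 0.15), with adjusted p values in limma of 0.252 without a block and 0.0258 with the slide block. Both probes thus passed with the slide block and neither passed without it.

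Among the crosslinkers and bundlers, 9 of 10 genes were tested, 8 of them had a change below 0, and the median was -0.30. ACTN1 encodes α-actinin 1, which holds antiparallel filaments together. It read 2.74, 4.03 and 3.82 in the single cultures and 2.03, 3.46 and 3.54 in the mix cultures. On each slide the mix cultures were the lower ones, but the slide 1 arrays of both cultures lay below all slide 2 arrays, so the groups overlapped. The change was -0.52 (SE 0.49), with -0.70 on slide 1 and -0.43 on slide 2. Leaving out 1 array, without a block, moved it from -0.92 (without single culture 1) to -0.029 (without mix culture 1). Both are arrays of slide 1. Without either, slide 1 holds 1 culture only, so these values also carry the difference between the slides. The limma adjusted p was 0.889 without a block, 0.0375 with the slide block (95% interval -0.79 to -0.25) and 0.0692 with the replicate block, so the call rested on the choice of block. On the 4 arrays of slide 2 alone, limma gave -0.43 (SE 0.13) with an adjusted p of 0.16, from fewer arrays. The dimmer ACTN1 probe changed by -0.47 (SE 0.17) and passed in neither fit (0.482 and 0.0676). ACTN4, the other non-muscle α-actinin, changed by -0.03 (SE 0.23).

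FLNA encodes filamin A, which links filaments into orthogonal networks and to integrins. Its signal was 3.74, 4.58 and 4.56 in the single cultures and 2.93, 4.42 and 4.41 in the mix cultures. The difference on slide 1, at -0.80, was larger than that on slide 2, at -0.15, and the groups overlapped. The overall change was -0.37 (SE 0.45), and limma called it neither without a block (adjusted p 0.932) nor with the slide block (0.161).

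FLNC, a filamin best known from muscle, had the same layout, with -2.88, -1.61 and -1.80 in the single cultures and -3.63, -1.94 and -1.85 in the mix cultures. Its change was -0.38 (SE 0.54), from -0.75 on slide 1 and -0.20 on slide 2. The groups overlapped, and limma did not call it (adjusted p 0.948, or 0.142 with the slide as a block).

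The plastins bundle parallel filaments, and PLS3 had the highest change of the set. It read 2.44, 1.56 and 1.61 in the single cultures and 2.61, 1.70 and 1.77 in the mix cultures. Each mix culture was slightly above the single cultures of its own slide, by 0.16 on slide 1 and 0.15 on slide 2, and the groups overlapped across slides. The change of 0.15 (SE 0.34) did not pass in limma (adjusted p 0.972, or 0.346 with the slide as a block), and with that block its 95% interval ended at 0.38. Its 5 probes gave 0.03 to 0.25. PLS1, the plastin of microvilli, changed by -0.31 (SE 0.17), with no overlap between the groups and an adjusted p in limma of 0.728.

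VIL1 encodes villin, the bundling and severing protein of microvilli. It read -0.25, -1.03 and -1.10 in the single cultures and -0.32, -1.41 and -1.27 in the mix cultures, so that slide 1 read higher than slide 2 in both. The change was -0.21 (SE 0.36), with -0.07 on slide 1 and -0.28 on slide 2, and did not pass in limma (adjusted p 0.959, or 0.257 with the slide as a block). FSCN1, the fascin of filopodia, changed by -0.28 (SE 0.15) and LIMA1, which stabilises filament bundles, by -0.30 (SE 0.24), with neither called. LCP1, the plastin of blood cells, was well above background on 1 single culture and 1 mix culture and was not tested. Its signal was between -5.95 and -5.46 on 5 arrays and -4.09 in mix culture 1.

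**Figure D2:**
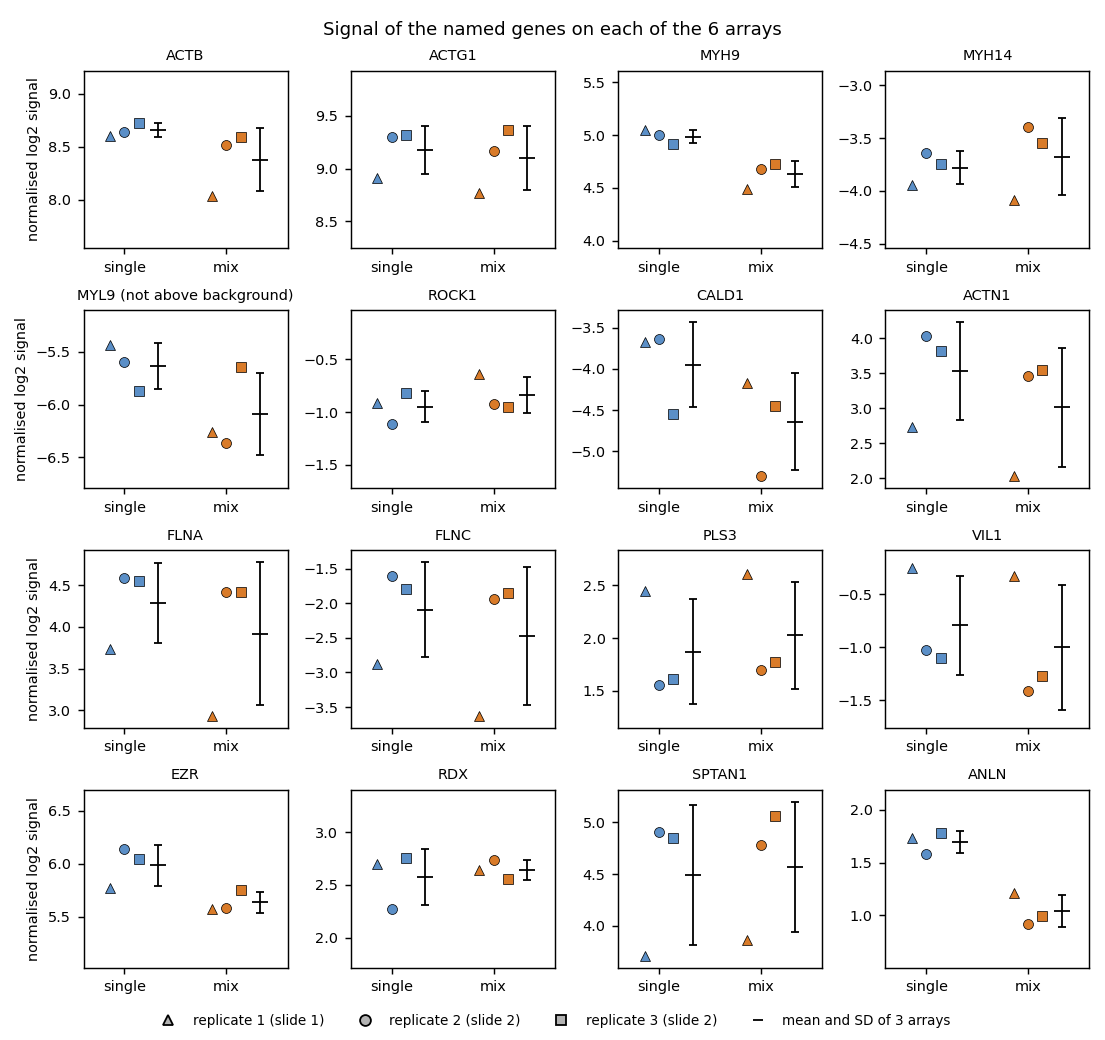
Normalised log2 signal (log2 minus the 75th percentile of the array) of 16 genes on the 6 arrays. Blue points are single cultures, orange points mix cultures, triangles replicate 1 on slide 1, circles and squares replicates 2 and 3 on slide 2, and black bars the mean and SD of 3 arrays. ANLN, MYH9, EZR and ACTB show no overlap between the cultures, while ACTN1, FLNA, FLNC, PLS3, VIL1 and SPTAN1 show a gap between slides that is wider than that between cultures.

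The membrane linkers had a median change of -0.23 over 5 genes. Ezrin, encoded by EZR, ties microvillar filaments to membrane proteins. It read 5.77, 6.14 and 6.05 in the single cultures and 5.57, 5.59 and 5.75 in the mix cultures, with every mix culture below every single culture. The change was -0.35 (SE 0.16), with -0.20 on slide 1 and -0.43 on slide 2. Limma did not call it without a block (adjusted p 0.643) or with the slide block (0.101, 95% interval -0.61 to -0.09). Its other probes gave -0.43 and -0.49, so all 3 had the same sign.

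Moesin, encoded by MSN, was singled out after its values had been seen because its 4 probes all lay below 0 and 1 of them was called. The brightest changed by -0.31 (SE 0.23), with a limma adjusted p of 0.837 without a block and 0.187 with the slide block. The probe at chrX:50761401-50761460 read -0.73, -1.31 and -1.15 in the single cultures and -1.77, -1.79 and -1.64 in the mix cultures, with no overlap. Its change was -0.67 (SE 0.19), with adjusted p values in limma of 0.289 without a block, 0.0305 with the slide block and 0.0476 with the replicate block. The overlapping pair of probes gave -0.55 and -0.53 and was called in none of these fits. Over all probes of the set, 4 of the 114 tested were called with the slide block, 2 for ANLN and 1 each for ACTN1 and MSN, 3 with the replicate block, and 0 without a block, where 7.2%, 5.26% and 0.883% of all tested probes were called.

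RDX, the gene of radixin, read 2.70, 2.27 and 2.76 in the single cultures and 2.64, 2.74 and 2.55 in the mix cultures. The groups overlapped, and the change of 0.07 (SE 0.18) was not called (limma adjusted p 0.977). The 3 RDX probes ran from -0.28 to 0.07, so they differed in sign. SPTAN1 encodes the α chain of non-erythroid spectrin. It read 3.71, 4.91 and 4.85 in the single cultures and 3.86, 4.78 and 5.06 in the mix cultures. Here too the slide 1 arrays were the lowest in both cultures, and the change was 0.08 (SE 0.42; limma adjusted p 0.986), with 0.15 on slide 1 and 0.04 on slide 2. SPTBN1, its β partner, changed by -0.23 (SE 0.17).

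The cytoplasmic actins, β and γ, form most filaments of epithelial cells. ACTB, which encodes β-actin, read 8.60, 8.64 and 8.73 in the single cultures and 8.03, 8.51 and 8.59 in the mix cultures. The highest mix culture, at 8.59, lay just below the lowest single culture, at 8.60, and mix culture 1 stood furthest from the rest. The change was -0.28 (SE 0.19), with -0.57 on slide 1 and -0.13 on slide 2, and limma did not call it (adjusted p 0.811, and 0.205 with the slide block). Without mix culture 1 the change was -0.10, but slide 1 then holds 1 culture only.

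ACTG1, which encodes γ-actin, read 8.91, 9.30 and 9.32 in the single cultures and 8.77, 9.17 and 9.36 in the mix cultures, with overlap. Its change of -0.08 (SE 0.21; limma adjusted p 0.977) turned to 0.04 under quantile normalization, so no direction can be given. ACTA2, the smooth muscle actin that stress-fibre-rich cells also make, changed by 0.03 (SE 0.38), with -0.73 on slide 1 and 0.40 on slide 2. No probe of one actin shared a run of more than 8 bases with a probe of another. Among the other relatives compared, the longest shared runs were 14 bases for PLS1 and LCP1 and 13 for TPM2 and TPM4. The PLS1 probe matched an LCP1 probe at 42 of 54 aligned bases. The last TPM2 probe printed above matched the brightest TPM4 probe at 27 of 32. A TPM1 probe matched that TPM4 probe at 43 of 59. Whether a probe also bound the RNA of a close relative was not tested.

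Myosin II was covered by 3 heavy chain genes and, of 4 light chain genes, by MYL12A and MYL12B. MYH9, the heavy chain of non-muscle myosin IIA, read 5.04, 5.00 and 4.92 in the single cultures and 4.49, 4.68 and 4.72 in the mix cultures. All mix cultures were lower than all single cultures. The change was -0.35 (SE 0.15), or 1.28-fold, with -0.55 on slide 1 and -0.26 on slide 2, and it did not pass in limma (adjusted p 0.566, or 0.0971 with the slide as a block). Its 3 probes gave -0.35 to -0.22.

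MYH14, the heavy chain of myosin IIC, read -3.95, -3.64 and -3.75 in the single cultures and -4.09, -3.40 and -3.55 in the mix cultures. The groups overlapped, the slides differed in sign (-0.14 and 0.22), and the change was 0.10 (SE 0.22; limma adjusted p 0.972). MYH10, the IIB heavy chain, changed by -0.10 (SE 0.17). The regulatory light chain genes MYL12A and MYL12B changed by -0.12 (SE 0.25) and -0.20 (SE 0.26). MYL9, the light chain typical of smooth muscle, was not well above background on any array, with signals from -5.87 to -5.44 in the single cultures and -6.36 to -5.65 in the mix cultures, and has no fold.

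Of the myosin regulators, ROCK1 is a kinase that keeps the light chain phosphorylated. It read -0.91, -1.11 and -0.82 in the single cultures and -0.64, -0.92 and -0.95 in the mix cultures. The groups overlapped, with 0.27 on slide 1 and 0.03 on slide 2, and the change was 0.11 (SE 0.17; limma adjusted p 0.952). It was 0.011 without mix culture 1, which leaves slide 1 with 1 culture, and 0.027 without single culture 2. ROCK2 changed by 0.02 (SE 0.20), and PPP1R12A, the targeting subunit of myosin phosphatase, by -0.15 (SE 0.17).

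Caldesmon, encoded by CALD1, binds actin and tropomyosin and restrains myosin. CALD1 had the lowest change of the set. Its probe read -3.67, -3.64 and -4.55 in the single cultures and -4.18, -5.30 and -4.44 in the mix cultures. The groups overlapped, since single culture 3 lay below 2 of the mix cultures. The change was -0.69 (SE 0.36), with -0.51 on slide 1 and -0.78 on slide 2, and limma did not call it without a block (adjusted p 0.716), with the slide block (0.169) or with the replicate block (0.218). It was called only with a crossed block that pairs single culture 2 with mix culture 3 and single culture 3 with mix culture 2, which share a slide but not a number (0.0217). Leaving out 1 array, without a block, moved the change from -0.98 (without single culture 3) to -0.36 (without mix culture 2). With background correction by normexp it was -0.17. The probe was dim, and mix culture 2 lay close to the lowest signal well above background on that array (-5.33). Its 3 other probes were not tested, being well above background on at most 2 arrays of either culture. The other genes of the calponin family, CNN1, CNN2, CNN3, TAGLN and TAGLN2, changed by between -0.21 and 0.05, with the widest interval at TAGLN (-1.29 to 1.31 without a block).

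The 4 tropomyosin genes lay between -0.33 (TPM3) and -0.15 (TPM2), below 0 on both slides and called in no fit. TPM2 was the 1 gene of the set whose probes differed by more than 0.5. Its brightest probe, at chr11:52212696-52212755, read -2.22, -1.58 and -1.78 in the single cultures and -2.27, -1.97 and -1.80 in the mix cultures, and changed by -0.15 (SE 0.22).

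The other 3 tested TPM2 probes gave 0.44, 0.66 and 0.77. The last of them, printed above as chr11:52213550-52214795, read -5.61, -3.85 and -3.85 in the single cultures and -3.65, -3.37 and -3.99 in the mix cultures. The low value was that of single culture 1, at about the lowest signal well above background on that array (-5.62). The change was thus 1.96 on slide 1 and 0.17 on slide 2. The other pair showed the same pattern, with 1.15 and 1.47 on slide 1 and 0.08 and 0.26 on slide 2. None of the 3 was called by limma, without a block (adjusted p from 0.724 to 0.843) or with the slide block (0.135 to 0.259). The probes map to different places in the gene, and which transcripts each one reads was not tested.

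**Figure D3:**
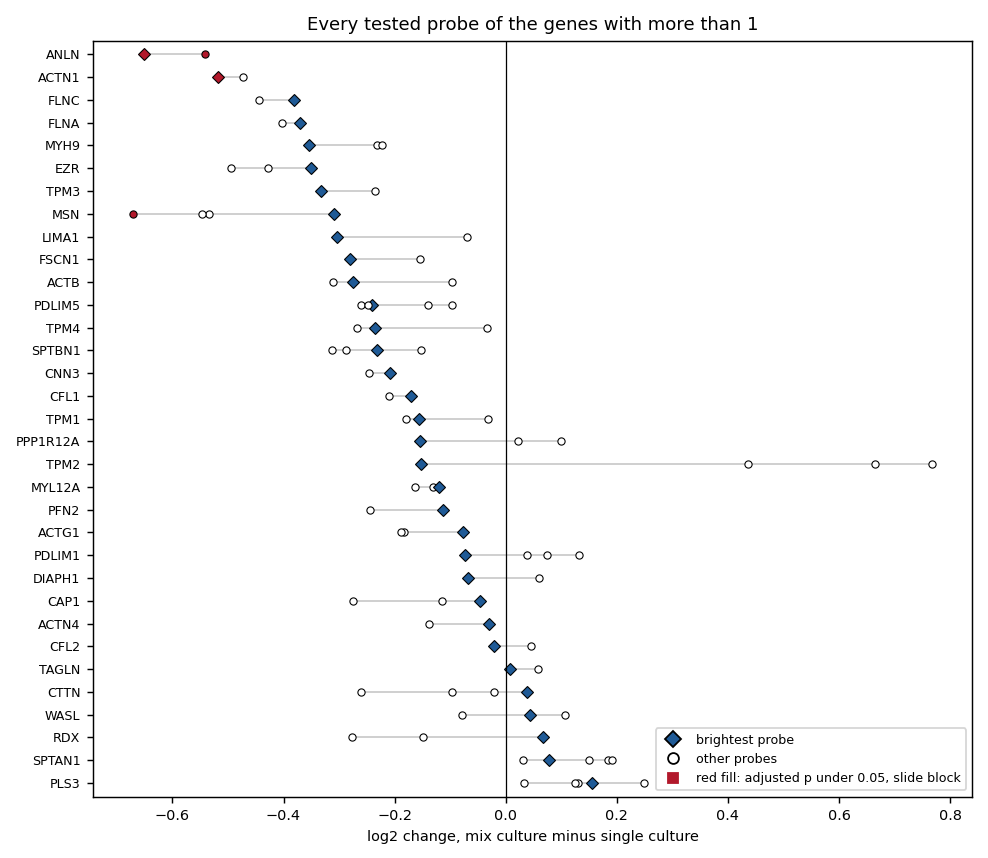
Log2 change (mix culture minus single culture) of every tested probe of the 33 genes with more than 1 tested probe. Diamonds are the brightest probes, circles the other probes, and a red fill marks an adjusted p under 0.05 with the slide block. In 8 genes the probes lie on both sides of 0, and TPM2 has the widest gap, from -0.15 to 0.77.

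The genes of filament turnover, which cut, cap or recycle filaments, were all below 0 in the fit, by -0.36 to -0.02 over 6 genes, with CAPG at the low end and CFL2 at the high end. CFL1 and PFN1, the main cofilin and profilin genes, changed by -0.17 (SE 0.44) and -0.23 (SE 0.58). Those of assembly and nucleation, among them the formins DIAPH1 and DIAPH3, the Arp2/3 activators WASL and WASF2, EVL and cortactin (CTTN), had a median of -0.05 and ran from -0.26 (EVL) to 0.04. The scaffolds other than anillin, LASP1, PDLIM1 and PDLIM5, lay between -0.24 and -0.03. None of these genes was called in any fit with the scanner values.

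**Figure D4:**
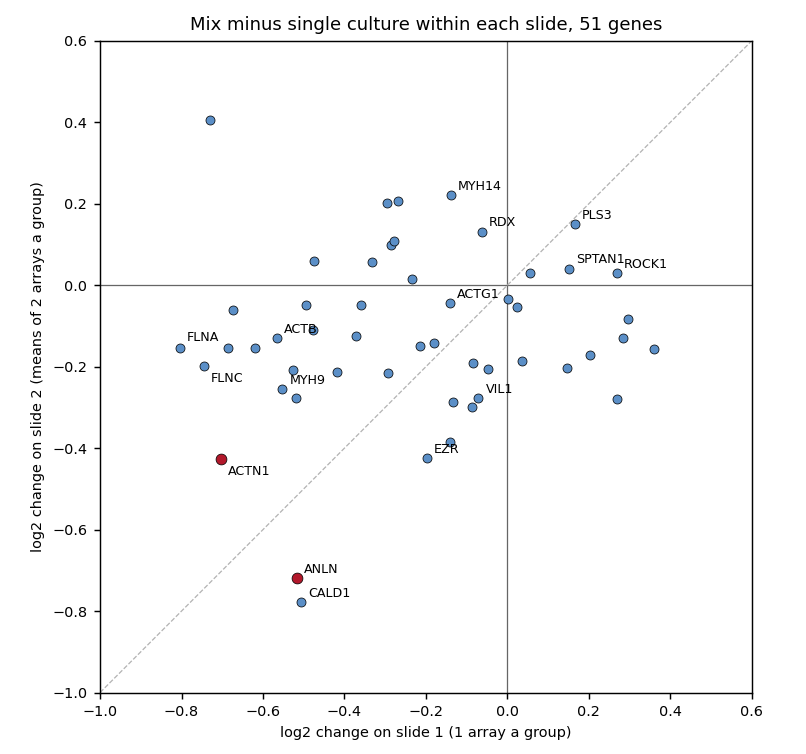
Log2 change on slide 1 (1 array of each culture) against that on slide 2 (means of 2 arrays of each culture) for the 51 tested genes. Red points were called with the slide as a block, and the dashed line marks equal changes. Below 0 on both axes lie 28 genes, above 0 on both lie 4, and the other 19 differ in sign between the axes. FLNA, FLNC and ACTB lie to the left of the dashed line.

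The slides differed for the set as a whole, with a median change of -0.23 on slide 1 and -0.14 on slide 2, where all tested probes gave -0.06 and -0.04. Slide 1 has 1 array per culture and gives no error of its own.

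Of the 6 genes with no probe under their name, 4 had probes that the description column of the array names for them, which were looked up afterwards. The 3 gelsolin (GSN) probes changed by -0.31, -0.18 and 0.11, the enabled homolog (ENAH) probe by -0.64 (SE 0.28), and the WASF1 probe by -0.12. Limma called none of them, and ENAH came closest, with adjusted p values of 0.583 without a block and 0.0842 with the slide block. ENAH read 1.70, 0.66 and 0.96 in the single cultures and 0.51, 0.58 and 0.30 in the mix cultures, which did not overlap. The 2 myosin light chain kinase (MYLK) probes were not well above background on any array. MYL6 and PDLIM7 were not analysed here.

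A second list was read in the same way. Its 52 gene symbols, some of them older and newer names of 1 gene, covered the Arp2/3 and WAVE complexes, filament capping, signalling to actin, and further actin-binding proteins. Of these 40 had a probe and 39 were tested. None was called by limma without a block, against 0.883% of all tested probes. An unadjusted p under 0.05 was given to 3 by limma (7.69%, against 8.71% of all tested probes). The methods' t-test called none after adjustment. With the slide block 1 was called (2.56%, against 7.2%), and with the replicate block none (against 5.26%). The 1 was WDR1, which helps cofilin take filaments apart. It read 5.32, 5.18 and 5.16 in the single cultures and 4.80, 4.69 and 4.82 in the mix cultures, with no overlap. Its change was -0.45 (SE 0.14), with -0.52 on slide 1 and -0.42 on slide 2, and the limma adjusted p was 0.377 without a block, 0.0387 with the slide block and 0.0756 with the replicate block.

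The list had a median change of -0.19, with 25 of 39 genes below 0, and in 8 of 39 (20.5%, against 8.66% of all tested probes) the mix cultures lay below all single cultures. Its changes ran from -0.55 to 0.34. By role, the median was -0.19 over 8 Arp2/3 subunits and 0.01 over 9 genes of capping and monomer binding.

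The labelled cell type was checked with marker lists. All 7 kidney epithelial markers with a probe were well above background on all 6 arrays. Their summed normalised log2 signal was 8.65 to 8.96 in the single cultures and 8.30 to 8.65 in the mix cultures. With the slide block 2 of the 7 were called, CDH1 (-0.47) and CLDN4 (-0.87), both lower in mix culture. Of all tested probes 3.22% were called lower with that block. Not called were PAX8 (0.47), EPCAM (-0.02), TJP1 (-0.05), CDH16 (-0.10) and KRT18 (-0.40). The CLDN4 groups overlapped, and without a block none of the 7 was called. Of the 5 leukocyte markers CD3E, CD79A and CD68 were well above background on all 6 arrays and PTPRC on none, and their summed signal was 0.21 to 0.51 in the single cultures and 0.15 to 0.32 in the mix cultures. Of the 5 fibroblast markers COL1A2 was well above background on all 6 arrays and DCN and PDGFRA on none, and the summed signal was -0.42 to 0.77 in the single cultures and -0.68 to 0.48 in the mix cultures. Of the 3 muscle markers with a probe, MYH11 and DES were well above background on no array. The summed muscle signal was -5.14 to -4.92 in the single cultures and -5.27 to -4.90 in the mix cultures. Of the 4 endothelial markers 3 were well above background on all arrays, with a summed signal of 2.46 to 3.81 in the single cultures and 2.22 to 3.85 in the mix cultures. None of these non-epithelial markers was called, without a block or with the slide block. The part of any marker list in the changes above was not tested.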

How the data were processed

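Total RNA of 6 samples was hybridised to 1-colour Agilent canine arrays. The authors deposited a scanner file per array, whose intensity values Agilent Feature Extraction had background-subtracted (versions 11.5.1.1 on slide 1 and 12.1.1.1 on slide 2, per the file headers). They also deposited a table of log2 values, whose steps are not given in the sources used here. Its column medians were 0.02, 0.01 and 0.01 for the single cultures and -0.02, -0.01 and -0.01 for the mix cultures, so values are centred. Its columns were compared with the scanner files after each probe's mean over the arrays of a slide was subtracted. The columns for mix cultures 2 and 3 each matched the scanner file of the other. These correlations were 0.999 and 0.993, against 0.458 and 0.459 with their own. The exchange leaves group means unchanged. The table served as an alternative.

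Groups came from the sample titles. Control spots and 5 to 9 outlier spots per array were dropped, spots of a probe were averaged, and the 75th percentile of each array was subtracted from its log2 intensity. The share of spots well above background was 61.11% to 65.66%, and none was saturated. The number of arrays limits the precision. limma 3.58.1 in R 4.3.3 (lmFit, eBayes, two-sided) tested 26621 probes with Benjamini-Hochberg adjustment. It was also run without a block on simulated data. Those data held no difference between slides, so that run does not cover the slide difference of the real arrays. Alternatives were blocks, filters, scalings, background correction by normexp, the methods' t-test, the mean of probes, and leaving out each array. Gene names are those of the array. The genes and lists were chosen with earlier results of these data known. Named genes were those called without a block or with the slide block, the 5 highest and 5 lowest changes, those never above background in 1 culture, and ACTB, ACTG1, FLNA, MYH9, EZR and VIL1, with the exceptions named in the text; the rest are given by role. Some genes of the second list are not reported here by name.

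Arrays of the same replicate number deviated together from their group means (correlations 0.801, 0.53 and 0.572). Arrays of slide 2 with different numbers did so slightly more than those of that slide with the same number (0.61 and 0.632). These correlations thus do not single out the same-numbered arrays of slide 2 as pairs.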

Additional observations from a re-analysis of the deposited data

How the results depend on the processing

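Over the 255 values of the 15 tested named genes under the alternatives, 13 changed sign and 8 passed the threshold. Without a block no gene of the set passed under any filter, scaling or background correction of the scanner values, or without any 1 array. Calls in the set numbered 2 with the slide block (ANLN, ACTN1), 1 with the replicate block (ANLN), 2 with the crossed replicate block, in which mix cultures 2 and 3 change places (ANLN, CALD1), 1 on slide 2 alone (ANLN) and 3 in the authors' value table (ANLN, ACTN1, PDLIM5). Calls in the second list numbered 1 with the slide block (WDR1) and 2 in the authors' value table (WDR1, MYO6). The replicate block changed no other call. These calls are out of 51 tested genes of the set and 39 of the second list. Of all tested probes 7.2% were called with the slide block and 5.26% with the replicate block. Of the same 26621 probes 1447 were called with the crossed block, 983 on slide 2 alone and 4077 in the authors' value table. That table was fitted without a block. Its SE was 0.09 for ACTN1 and 0.13 for FLNA. The scanner values gave 0.49 and 0.45 without a block, and 0.12 and 0.15 with the slide block. Its calls thus cannot be set beside the unblocked calls of the scanner values. How its steps treated the slides was not tested. The median change over the set was -0.093 with normexp, against -0.15, and ran from -0.21 (without mix culture replicate 3) to -0.092 (without mix culture replicate 1) when 1 array was left out.

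Over all probes, 235 calls (217 of them higher in mix culture) became 1917 (1060 higher) with the slide block, 1399 (861) with the replicate block, 1447 (856) with the crossed block, 983 (641) on slide 2 alone, 143 with all 6 arrays above background, 100 with normexp, 4077 (1948) in the authors' value table and 8 with the methods' t-test. They ran from 86 to 242 without 1 array, and fell by over 1.5 times without single culture replicate 3 (94), mix culture replicate 2 (92) or mix culture replicate 3 (86). The cause was not tested.

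The sign of ACTG1 turned under quantile normalization (0.041) and in the authors' value table (0.037). Leaving out 1 array gave changes of -0.21 to 0.090 for ACTG1, -0.040 to 0.31 for MYH14, -0.65 to 0.12 for FLNA, -0.77 to 0.20 for FLNC, -0.14 to 0.44 for PLS3, -0.55 to 0.063 for VIL1, -0.085 to 0.16 for RDX and -0.31 to 0.43 for SPTAN1, none of them called in any fit. The sign turned without mix culture replicate 1 for ACTG1, FLNA, FLNC and PLS3, without single culture replicate 1 for VIL1 and SPTAN1, without single culture replicate 2 for PLS3 and RDX, without mix culture replicate 2 for MYH14 and SPTAN1, and without mix culture replicate 3 for SPTAN1. Leaving out an array of slide 1 leaves that slide with 1 culture. The changes without replicate 1 of either culture thus also carry the difference between the slides.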
